A study of Mus musculus with 47 samples.

Results

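Many brain genes make several transcripts from 1 locus by starting at different promoters, joining different exons or ending at different sites, and the proteins can differ in the domains they carry. The share that each transcript takes of its gene's output, its usage, was compared here between the hippocampus and the prefrontal cortex (PFC) of mice that had received an inhibitor of PSD-95. PSD-95 is the postsynaptic scaffold encoded by Dlg4, which holds glutamate receptors at excitatory synapses through its PDZ domains. Usage is the estimated count of a transcript divided by the summed counts of all transcripts listed for its gene, in percent of the gene's count in that library. It describes how the count of a gene was divided among its transcripts, whatever the level of the gene. Counts were not divided by transcript length unless this is stated.

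The comparison used 16 of the 47 libraries of the series, 8 from hippocampus and 8 from PFC, all labelled PSD-95i. Genes with at least 2 listed transcripts and a mean count of 50 or more over these 16 libraries were taken, which left 8499 of 45706 genes. Of these, 7954 genes with 34156 transcripts had at least 2 transcripts with a mean count of 5 or more and were tested, and the other 545 were not. The gene just inside the limit was 8430429K09Rik, at a mean count of 50, and the gene just outside was Tax1bp3, at 49.9. The mean was taken over both tissues, and 21 tested genes had a mean count under 20 in 1 of them.

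The mice of the series were obese from their diet and weighed 53 g on average. Per the labels' protocol, they were injected daily for 5 days with saline, with UCCB01-147 at 25 mg/kg or with mPD5 at 56 mg/kg, and were killed 2 hours after the last injection. UCCB01-147 is known as a PSD-95 inhibitor and mPD5 as a PICK1 inhibitor, and the PSD-95i and PICK1i labels were matched to them on that ground. The protocol names hypothalamus as the tissue and 6 saline mice, which differs from the tissues and group sizes here, so its details may not hold for each library. The labels give no strain, age or sex, nor whether any libraries share a mouse. The p-values therefore measure the spread between these libraries, which may in part be technical.

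Total estimated counts ran from 5378175 to 13139410 in the hippocampal libraries and from 6534326 to 12673677 in the PFC libraries, and mitochondrially encoded transcripts made up 9.12 to 11.2% and 8.37 to 11.4%. The summed level of 9 upper-layer cortical markers was 394 to 457 CPM (counts scaled to the library total) in hippocampus and 1114 to 1782 CPM in PFC, and that of 9 dentate granule cell markers was 296 to 847 and 198 to 239 CPM, as the tissue labels say. The sum of deep-layer cortical markers, 12 genes, went the other way, with 686 to 790 CPM in hippocampus and 266 to 577 CPM in PFC. Its members were mixed: 5 were higher than in PFC in every hippocampal library, and 2 were lower in every one. Choroid plexus markers, 9 genes, summed to 95.1 to 3538 CPM in hippocampus, where replicates 3, 6 and 7 were highest, and to 4.35 to 6.45 CPM in PFC. Oligodendrocyte markers, 14 genes, summed to 2650 to 7480 and 1699 to 2810 CPM, and astrocyte markers, 11 genes, to 4678 to 5935 and 3989 to 5330 CPM. On the first 2 components of usage, which held 23.5 and 13.3% of the variance, PFC replicates 2, 3 and 8 stood farthest from the rest. Counts of calls are given below without them as well. The first component did not divide the tissues. PFC replicates 3, 5, 7 and 8 lay on it at 0.274 to 0.503, and all other libraries, of both tissues, at 0.0852 or below. Replicates 5 and 7 stay in the fit without replicates 2, 3 and 8.

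Usage differed between the tissues for few transcripts, and mostly by little. With edgeR's quasi-likelihood test of each transcript's difference against that fitted for its gene, 270 of 34156 transcripts (0.79%) in 210 genes had an adjusted p under 0.05 and are called different. Of these, 93 (0.272% of all tested) took a higher share in hippocampus and 177 (0.518%) a lower share. The difference was under 2 percentage points for 166 of the 270, from 2 to 10 points for 85, and 10 points or more for 19 transcripts (0.0556%) of 15 genes. The median absolute difference was 1.65 points among the called transcripts and 0.728 points among all tested. At the level of genes, 154 of 7954 (1.94%) were called by the Simes test, which asks for at least 1 strongly shifted transcript, and 358 (4.5%) by the F test over all transcripts of a gene.

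The usage ranges of the tissues did not overlap for 155 tested transcripts (0.454%), 77 of them called. Without PFC replicates 2, 3 and 8, 114 transcripts were called, 53 higher and 61 lower, and without hippocampal replicates 3, 6 and 7, 99 were called, 43 higher and 56 lower. The excess of lower calls was not found by every tool: limma's voom test called 142 higher and 141 lower, limma on logit usage 121 and 92, and DESeq2 122 and 103. Of the 19 transcripts with a difference of 10 points or more, 14 were still called without the 3 PFC libraries and 15 without the 3 hippocampal libraries.

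**Figure D1:**
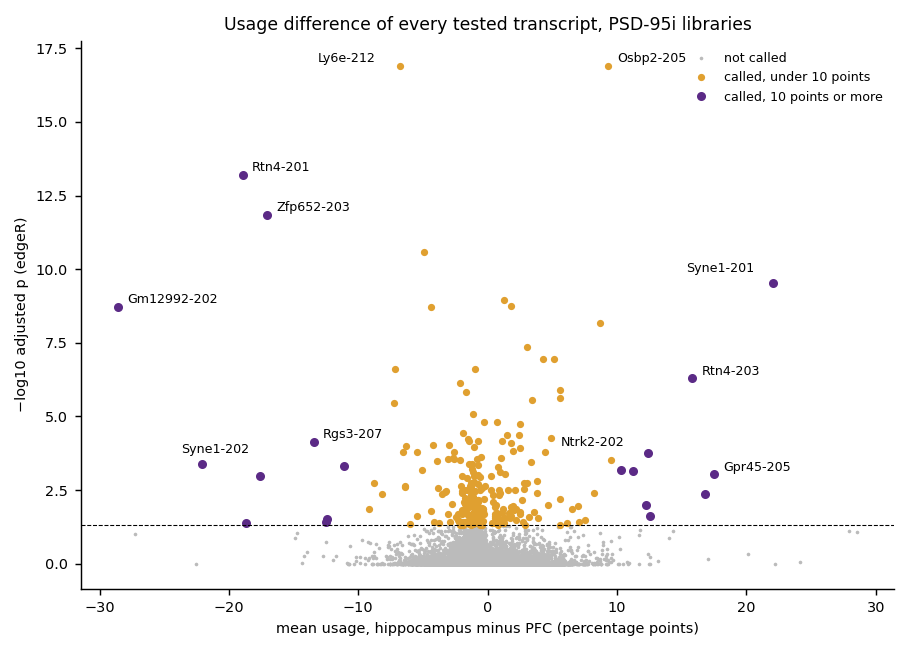
Each point is 1 of the 34156 tested transcripts, with its mean usage in hippocampus minus that in PFC on the x axis (percentage points) and the −log10 of edgeR's adjusted p on the y axis; the dashed line marks an adjusted p of 0.05. Most called transcripts (orange) lie within 10 points of 0, and 19 (purple) lie beyond, with Gm12992-202, Syne1-202 and Rtn4-201 farthest to the left and Syne1-201 farthest to the right.

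The gene with the largest called shift among named genes was Syne1, which encodes nesprin-1, a spectrin-repeat protein that ties the nuclear envelope to the cytoskeleton. The table lists 2 Syne1 transcripts, and they share no exon. Both lie on the minus strand of chromosome 10 (GRCm38), Syne1-201 at chr10:5336941-5550692, toward the 5′ end of the locus, and Syne1-202 at chr10:5021579-5069063, toward its 3′ end. Their coding parts hold 4296 and 2850 bases. Their first coding exons, at chr10:5541948-5542014 and chr10:5068807-5068898, are given here because the 2 proteins start from them, with the start codon in capitals.
Syne1-201: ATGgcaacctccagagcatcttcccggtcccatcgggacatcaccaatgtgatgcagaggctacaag
Syne1-202: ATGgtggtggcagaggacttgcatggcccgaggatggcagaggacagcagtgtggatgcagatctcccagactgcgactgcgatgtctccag

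Syne1-201 took 52.0, 38.99, 48.7, 44.6, 47.3, 43.5, 48.4 and 47% of the Syne1 count in hippocampal replicates 1 to 8. In PFC replicates 1 to 8 it took 26.6, 22.2, 28.01, 23.4, 24.5, 27.9, 18.8 and 22.7%. Every hippocampal library was thus above every PFC library. The mean was 46.3% ± 3.95 (SD, n = 8) against 24.3% ± 3.15 (SD, n = 8), a difference of 22.05 points (edgeR adjusted p = 2.86e-10; exact permutation p = 0.000155, two-sided, the smallest that 8 against 8 libraries allow). Syne1-202 held the rest, 53.7 and 75.7% (edgeR adjusted p = 0.000422). Since the transcripts cover opposite ends of the locus, this usage compares reads from its 5′ part with reads from its 3′ part, and the part that RNA integrity or read coverage has in it was not tested. Divided by transcript length, the shares of Syne1-201 were 29.9 and 13.7%.

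Rtn4 encodes the reticulon Nogo, a membrane protein of the endoplasmic reticulum whose long form, Nogo-A, is known as an inhibitor of neurite growth made by oligodendrocytes and by neurons. The short transcript Rtn4-201 (chr11:29718563-29742916, plus strand, GRCm38) starts at an own first exon and codes for 600 bases. Rtn4-203 (chr11:29693774-29742916) and Rtn4-205 (chr11:29692947-29742916) start upstream, include the large exon that marks the long form, and code for 3141 and 3489 bases. The 34 coding bases that Rtn4-201 has and Rtn4-203 lacks lie at chr11:29718849-29718882, and the 157 coding bases that set Rtn4-203 apart from Rtn4-205 lie at chr11:29693806-29693962. They are shown because they mark where the transcripts start, with start codons in capitals.
Rtn4-201: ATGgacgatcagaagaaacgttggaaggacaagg
Rtn4-203: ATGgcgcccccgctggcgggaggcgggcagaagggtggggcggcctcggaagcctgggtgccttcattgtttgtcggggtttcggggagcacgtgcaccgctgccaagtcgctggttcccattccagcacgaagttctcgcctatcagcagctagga

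The short Rtn4-201 made up 20.2, 22.6, 22.5, 23.6, 20.4, 22, 21.9 and 23.02% of Rtn4 in hippocampal replicates 1 to 8, and 40.9, 45.97, 38.5, 40.4, 38.1, 36.4, 44.7 and 42.5% in PFC replicates 1 to 8. The groups stood more than 10 points apart, with a mean of 22.02% ± 1.20 (SD, n = 8) in hippocampus against 40.9% ± 3.32 (SD, n = 8) in PFC (edgeR adjusted p = 6.4e-14). The long Rtn4-203 went the other way, with a lowest, median and highest share of 44.6, 46.2 and 47.3% in hippocampus and 26.4, 31.2 and 33.1% in PFC (edgeR adjusted p = 5.06e-07). Rtn4-205, the other long transcript, was also higher in hippocampus, at 11.1% ± 0.765 (SD, n = 8) against 7.75% ± 1.27 (SD, n = 8) (edgeR adjusted p = 0.000341). Both long transcripts were thus higher and the short one lower in hippocampus.

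Oligodendrocyte marker sums were 2650 to 7480 CPM in hippocampus and 1699 to 2810 CPM in PFC, which overlapped. The part of oligodendrocytes in the Rtn4 shift was not tested. In bulk tissue, fewer cells of a type and less RNA per cell cannot be told apart, and this holds for every usage given here.

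Ntrk2 encodes TrkB, the receptor for brain-derived neurotrophic factor, whose full-length form signals through an intracellular tyrosine kinase and whose truncated form lacks it. The table lists both as its only Ntrk2 transcripts: full-length Ntrk2-201 (chr13:58807697-59133970, plus strand, GRCm38; 2466 coding bases) and truncated Ntrk2-202 (chr13:58808281-58937027; 1431 coding bases). The truncated transcript ends its reading frame in 38 coding bases of its own last exon, at chr13:58932023-58932060, shown with the stop codon in capitals because they replace the kinase-coding exons.
Ntrk2-202: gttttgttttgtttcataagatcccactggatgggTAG

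Truncated Ntrk2-202 took 43.7, 47.3, 49.3, 47.5, 47.5, 48.5, 47.6 and 45.3% in hippocampal replicates 1 to 8 and 31.98, 33.9, 32.5, 34.2, 34.8, 34.7, 41.4 and 34.3% in PFC replicates 1 to 8. The ranges did not overlap, although PFC replicate 7, at 41.4%, lay closer to hippocampus than the other PFC libraries. The mean was 47.1% ± 1.77 (SD, n = 8) against 34.7% ± 2.87 (SD, n = 8) (edgeR adjusted p = 0.00018; exact permutation p = 0.000155). The truncated form is known from astrocytes, and the part of astrocytes in the difference was not tested. Astrocyte marker sums were 4678 to 5935 CPM in hippocampus and 3989 to 5330 CPM in PFC. With 2 listed transcripts, the lower share of Ntrk2-201, 52.9 against 65.3%, is the same difference seen from the other side. Its adjusted p in edgeR was 0.0309, then 0.249 without the 3 PFC libraries and 0.333 without the 3 hippocampal libraries. Ntrk2-202 was still called in both of these fits (edgeR adjusted p = 0.00476 and 0.0105). The test sets each transcript against the fitted difference of its gene, so the p-values of the pair can differ.

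**Figure D2:**
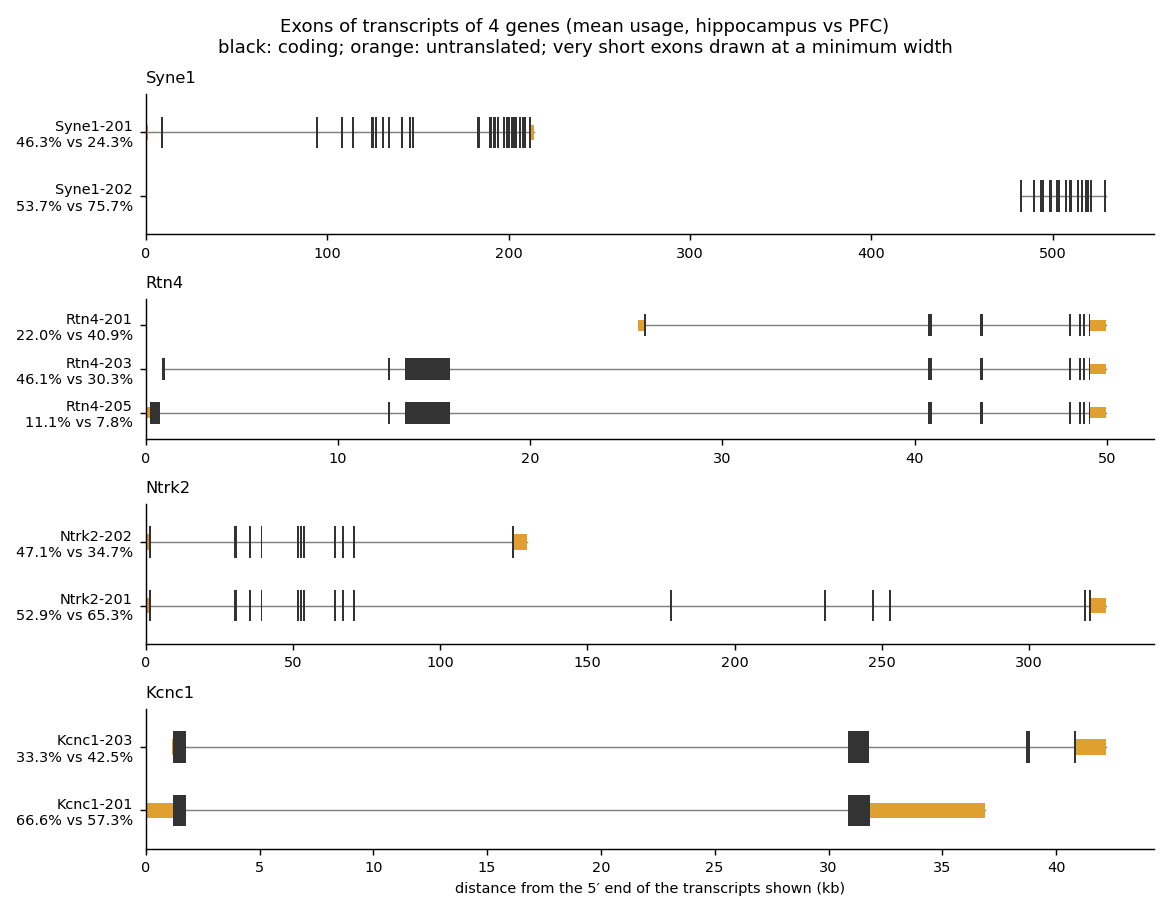
Exon maps of the Syne1, Rtn4, Ntrk2 and Kcnc1 transcripts, drawn 5′ to 3′ with the distance in kb from the first base shown; black blocks are coding, orange blocks untranslated, and the numbers beside each name are its mean usage in hippocampus and in PFC. The 2 Syne1 transcripts lie apart from each other, Rtn4-201 starts downstream of the large coding exon, and Ntrk2-202 and Kcnc1-201 end before the last coding exons of their partners.

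Lrrtm4, a leucine-rich adhesion protein that organizes excitatory postsynapses and is known from dentate granule cells, had a lower count than the genes above (160 on average). Lrrtm4-203 (chr6:80019011-80810141, plus strand, GRCm38) ends in a far downstream exon with 222 coding bases at chr6:80808968-80809189, and Lrrtm4-201 (chr6:80019643-80024932) stops before it. That stretch is shown because it is the protein tail that only the longer form carries, with the stop codon in capitals.
Lrrtm4-203: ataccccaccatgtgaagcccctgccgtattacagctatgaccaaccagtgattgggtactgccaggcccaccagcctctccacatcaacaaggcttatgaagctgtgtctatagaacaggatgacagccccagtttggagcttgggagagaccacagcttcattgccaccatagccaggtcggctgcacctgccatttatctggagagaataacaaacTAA

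Usage of Lrrtm4-203 had a lowest, median and highest value of 18.3, 20.6 and 32.2% in hippocampus and 29.1, 42.1 and 49.6% in PFC. The ranges overlapped through hippocampal replicate 4, the highest there, and PFC replicate 3, the lowest there. The means were 22.8% ± 4.82 (SD, n = 8) and 40.4% ± 7.55 (SD, n = 8) (edgeR adjusted p = 0.00103). Lrrtm4-201 was higher in hippocampus, 44.7% ± 6.00 (SD, n = 8) against 27.9% ± 3.25 (SD, n = 8) (edgeR adjusted p = 0.00439). Dentate granule cell markers were also higher in hippocampus, and their part in the difference was not tested.

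Arpp19 and Ensa are paralogous phosphoproteins that inhibit the phosphatase PP2A once phosphorylated. Arpp19-203 (chr9:75052051-75058076, plus strand, GRCm38) starts at a downstream exon and codes for 291 bases, and it lacks the first 45 coding bases of Arpp19-201, at chr9:75037917-75037961. Ensa-202 (chr3:95625011-95632102, plus strand) ends its reading frame in 16 bases at chr3:95631432-95631447. Ensa-201 holds these bases too, but untranslated, and lacks only 9 bases of Ensa-202, at its 5′ end. Both stretches are shown because the coding parts of each gene's transcripts differ there, with start and stop codons in capitals.
Arpp19-201: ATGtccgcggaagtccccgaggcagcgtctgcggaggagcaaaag
Ensa-202: tggccaagttgagTGA

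Arpp19-203 took 34.7 to 41.3% of Arpp19 in hippocampus (median 37.3%) and 47.5 to 54.1% in PFC (median 50.4%). The groups did not overlap, and the means were 38% ± 2.69 (SD, n = 8) and 50.5% ± 2.23 (SD, n = 8). Its adjusted p was 0.0393 in edgeR and rose above 0.05 when any of 12 of the 16 libraries was left out, up to 0.12. The decay-prone Arpp19-202, annotated as a target of nonsense-mediated decay, was higher in hippocampus, 4.98% ± 0.790 (SD, n = 8) against 1.92% ± 0.365 (SD, n = 8) (edgeR adjusted p = 4.48e-08). Ensa-202 took 12.03 to 15.2% in hippocampus (median 13.2%) and 19.2 to 21.99% in PFC (median 20.6%), with no overlap (edgeR adjusted p = 2.4e-07). The main Ensa transcript, Ensa-201, held 78.1 and 69.7% and was not called (adjusted p = 0.633). The test sets a transcript against its gene's fitted difference, which the most abundant transcript itself largely fixes.

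Arpp21, a cAMP-regulated phosphoprotein of the same historical family name that binds RNA, had 32 listed transcripts on chromosome 9 and the most called ones of the genes named here. Arpp21-206, annotated as a processed transcript without a reading frame, was lower in hippocampus, 24.9% ± 3.68 (SD, n = 8) against 35.99% ± 2.52 (SD, n = 8) (edgeR adjusted p = 0.00049). Arpp21-207, annotated as a decay target, was higher, 20.2% ± 1.54 (SD, n = 8) against 11.5% ± 1.10 (SD, n = 8) (edgeR adjusted p = 6.71e-09). Neither overlapped between the tissues. The call of Arpp21-206 was lost in a fit of all 6 groups of the series (adjusted p = 0.433).

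Zfp652 encodes a zinc finger repressor of transcription. Its transcript Zfp652-203 (chr11:95713011-95835115, plus strand, GRCm38), annotated as a decay target, ranged from 10.1 to 15.5% in hippocampus (median 13.8%) and from 23.6 to 39.9% in PFC (median 29.4%). All 8 PFC libraries were above all hippocampal ones, and the means were 13.4% ± 1.87 (SD, n = 8) and 30.4% ± 5.88 (SD, n = 8) (edgeR adjusted p = 1.44e-12). The exons of Zfp652-203 overlap Phospho1 on the same strand and Abi3 on the opposite strand, so reads of those genes cannot be told apart from it with certainty.

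The other transcripts with a difference of 10 points or more belonged to genes of lower count or to annotated non-coding forms. Cxcl12-204, a retained-intron form of the chemokine CXCL12, ranged from 29.1 to 45.1% in hippocampus (median 39.4%) and from 22.2 to 28.5% in PFC (median 27.2%) (edgeR adjusted p = 0.00985). Its ranges did not overlap, but the call was lost without the 3 PFC libraries (adjusted p = 0.108) and without the 3 hippocampal libraries (adjusted p = 0.159). Gpr45-205, a processed transcript of an orphan G protein-coupled receptor, was higher in hippocampus, 40.8% ± 4.71 (SD, n = 8) against 23.2% ± 6.84 (SD, n = 8), with overlapping ranges (edgeR adjusted p = 0.000919). Rgs3-207, a retained-intron form of a regulator of G protein signalling, was lower in hippocampus, 9.43% ± 3.21 (SD, n = 8) against 22.8% ± 3.39 (SD, n = 8), with no overlap (edgeR adjusted p = 7.47e-05).

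Il16 is the 1 gene among these whose count was near 0 in a tissue: it averaged 230 counts in hippocampal libraries and 7.88 in PFC libraries. The share of Il16-204 ranged from 0 to 42.9% over the PFC libraries, which at that depth is a matter of a few reads, and from 3.21 to 9.41% in hippocampus (edgeR adjusted p = 0.0427). The call ended when any of 10 of the 16 libraries was left out. The 15 genes also included 4 that were picked out here after their values were seen, because the rule for names leaves out predicted models and genes of low count. Gm12992-202 had the largest difference of all called transcripts, 4.53% in hippocampus against 33.1% in PFC (edgeR adjusted p = 1.92e-09). 4933434E20Rik-201 took 28.1 and 17.8%, Vwa5b1-202 14.2 and 1.58%, and Stra6-210 14.2 and 2.98%. Vwa5b1-202 was at 0 in the lowest hippocampal library, its ranges overlapped, and its call (edgeR adjusted p = 0.0235) ended when any of 5 libraries was left out and without the 3 PFC libraries (adjusted p = 0.315). Stra6, the cellular receptor for retinol-binding protein, is known from choroid plexus, whose markers were higher in every hippocampal library than in any PFC library, and their part in this difference was not tested.

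**Figure D3:**
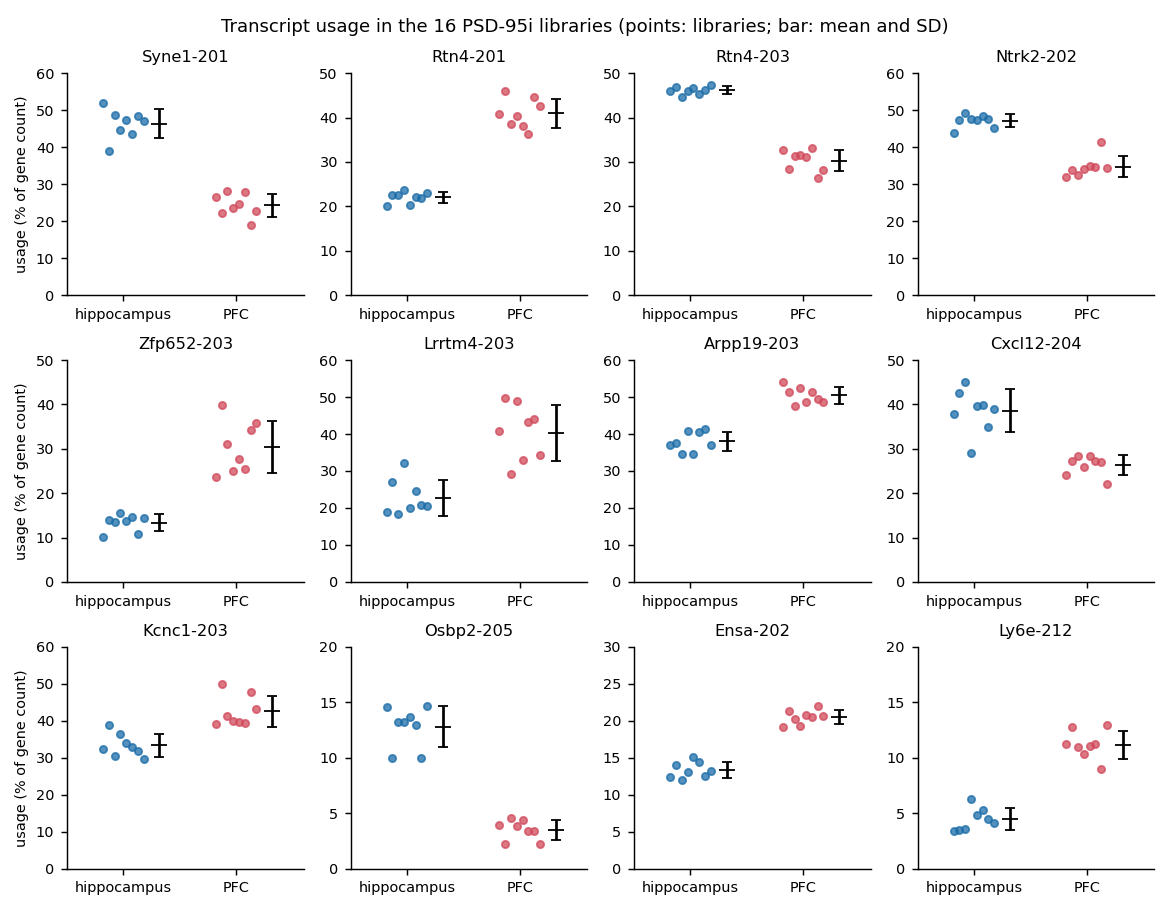
Usage of 12 transcripts in the 16 libraries, in percent of the gene's count on the y axis of each panel; points are single libraries (blue hippocampus, red PFC) in order of replicate number, and bars are the mean and SD of 8 libraries. The points of the 2 tissues stand apart in every panel except that of Lrrtm4-203, where they overlap.

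Ion channel genes had smaller shifts in shares of counts. Kcnc1 encodes Kv3.1, a fast potassium channel that lets neurons fire at high rates, and its 2 main transcripts differ in the coded C-terminal tail. The tail of Kcnc1-201 (chr7:46396497-46433354, plus strand, GRCm38) is 32 coding bases at chr7:46428280-46428311. That of Kcnc1-203 (chr7:46397648-46438704) is made of 189 bases at chr7:46435158-46435346 and 65 bases at chr7:46437272-46437336. The tails are shown because they are the only coding difference between the transcripts, with stop codons in capitals.
Kcnc1-201: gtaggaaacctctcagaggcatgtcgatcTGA
Kcnc1-203, first exon of the tail: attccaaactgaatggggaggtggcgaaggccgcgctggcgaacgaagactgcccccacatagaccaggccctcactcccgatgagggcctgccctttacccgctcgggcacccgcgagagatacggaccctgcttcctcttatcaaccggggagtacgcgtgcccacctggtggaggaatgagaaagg
Kcnc1-203, last exon of the tail: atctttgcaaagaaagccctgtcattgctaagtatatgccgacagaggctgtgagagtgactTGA

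Kcnc1-203 ranged from 29.6 to 38.9% in hippocampus (median 32.8%) and from 39.3 to 50.02% in PFC (median 40.6%). The ranges came within 1 point of each other without overlapping, and the means were 33.3% ± 3.08 (SD, n = 8) and 42.5% ± 4.17 (SD, n = 8) (edgeR adjusted p = 0.0135). The call was lost without hippocampal replicate 3, without the 3 PFC libraries, without the 3 hippocampal libraries and in the fit of all 6 groups (adjusted p up to 0.314). Interneuron markers, 12 genes, were lower in hippocampus (938 to 1164 against 1252 to 1358 CPM), and their part in the difference was not tested. Cacnb2-210, a processed transcript of the calcium channel subunit beta 2, took 7.53% ± 1.19 (SD, n = 8) in hippocampus and 14.8% ± 2.35 (SD, n = 8) in PFC, with no overlap (edgeR adjusted p = 3.41e-06). Cacna1a-210, a short processed transcript of the P/Q-type calcium channel, took 3.04% ± 0.661 and 1.25% ± 0.417 (SD, n = 8 each) (edgeR adjusted p = 1.83e-09). Divided by transcript length, its shares were 24.7% in hippocampus and 11.7% in PFC, so the size of this shift depends on the measure.

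The scaffold and adhesion genes described next, unlike Lrrtm4 above, had shifts of a few points. Dlgap1-208, a coding transcript of the PSD-95-binding protein SAPAP1 with a first exon of its own against the main Dlgap1-211, took 6.91 to 9.24% in hippocampus (median 8.16%) and 3.59 to 5.96% in PFC (median 4.81%), without overlap (edgeR adjusted p = 2.79e-06). Tiam1-214, from a Rac exchange factor of dendritic spines, took 0.341 to 2.04% in hippocampus (median 1.34%) and 4.50 to 7.73% in PFC (median 5.31%), again without overlap (edgeR adjusted p = 1.92e-09). Its mean difference was -4.38 points here, -3.59 in saline libraries and only -0.736 in PICK1i libraries. For Kalrn, another Rac exchange factor of spines, Kalrn-212 was higher in hippocampus (8.18 against 5.14%; edgeR adjusted p = 0.00178, and 0.0569 without the 3 hippocampal libraries) and Kalrn-205, which shares no exon with it, was lower (3.88 against 6.85%; edgeR adjusted p = 9.41e-05). Ptprs-201, from a receptor tyrosine phosphatase of the presynapse, was lower (14.8 against 19.9%; edgeR adjusted p = 0.000648), and this call was lost without the 3 hippocampal libraries.

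The genes that encode the targets of the inhibitors did not pass. Dlg4-201, the main transcript of PSD-95, took 59.1% ± 1.44 (SD, n = 8) in hippocampus and 59.6% ± 2.32 (SD, n = 8) in PFC, and Dlg4-204 took 20.9 and 20.5%. Pick1-210, a retained-intron form and the most used of the 12 listed Pick1 transcripts, took 38.6% ± 2.87 (SD, n = 8) and 37.8% ± 3.69 (SD, n = 8). The adjusted p in edgeR was 1 for each of these 3, which does not show that their usage was the same. Exons of Pick1 overlap Gm49486 on the same strand.

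Cytoskeletal genes held the most called members of any list. Dclk1-212, a short coding transcript of a doublecortin-like kinase that binds microtubules, took 7.86 to 11.5% in hippocampus (median 9.25%) and 4.40 to 6.58% in PFC (median 5.28%), with no overlap (edgeR adjusted p = 1.09e-07). Map4-214, from a microtubule-associated protein, took 11.4 to 18.7% (median 15.7%) and 8.42 to 14.2% (median 10.1%), which overlapped (edgeR adjusted p = 5.4e-05). Macf1, which links actin to microtubules, had Macf1-214 at 0.412 and 1.13% (edgeR adjusted p = 0.000976).

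Over 12 lists of neuronal and glial genes, 29 of 374 tested genes (7.75%) were called by the Simes test, against 1.94% of all tested genes. The lists were chosen with earlier results of these data known, so nothing particular to them is read from this. Called were 7 of 36 cytoskeletal and axon initial segment genes, 4 of 35 postsynaptic scaffolds and PDZ partners (Dlgap1, Dlgap3, Kalrn and Tiam1), 4 of 42 genes of vesicle release (Clta, Dnm3, Rimbp2 and Vamp1), and 3 of 21 sodium and calcium channels (Cacna1a, Cacna1e and Cacnb2). Glutamate receptors had 2 of 24 (Gria2 and Grin1), synaptic adhesion 2 of 28 (Ptprd and Ptprs), and G protein, cAMP and neurotrophin signalling 2 of 36 (Ntrk2 and Prkacb). RNA-binding splicing regulators had 2 of 57 (Fxr1 and Nova2), and potassium channels, calcium and kinase signalling and GABA receptors 1 each (Kcnc1, Mapk10 and Gabbr1). No gene of the myelin and glia list, of 23 tested, was called.

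The median of the largest absolute usage difference per gene was 1.72 points over the list genes and 1.79 points over all tested genes. Of the 29 called list genes, 17 were called without the 3 PFC libraries and 13 without the 3 hippocampal libraries. The calls of Dlgap1, Tiam1, Cacna1a, Cacnb2, Dclk1 and Ntrk2 were made under both of these, by voom, by logit usage and by DESeq2, and those 6 were the only ones. Several small calls rested on a wide spread in PFC: Nova2's ENSMUST00000172835 took 2.85% ± 0.615 in hippocampus and 4.89% ± 2.03 in PFC (SD, n = 8 each; edgeR adjusted p = 0.0191), and was not called without the 3 PFC libraries.

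Further named genes with differences under 10 points were of varied function. Osbp2-205, a processed transcript of an oxysterol-binding protein, had 1 of the 2 smallest p-values of all (edgeR adjusted p = 1.23e-17), with 9.95 to 14.7% in hippocampus (median 13.2%) and 2.24 to 4.601% in PFC (median 3.60%). The other was Ly6e-212 (edgeR adjusted p = 1.23e-17), from a lipid-anchored surface protein, with 3.42 to 6.31% in hippocampus (median 4.34%) and 8.99 to 12.9% in PFC (median 11.1%). For both, the tissues stood apart in all libraries. Within Ly6e, Ly6e-201 and Ly6e-203 were also lower in hippocampus, at 4.53 against 9.41% and 1.85 against 3.98%, and Ly6e-208, which starts downstream of them, was higher, at 12.2 against 8.34%. Osbpl1a-204, from another oxysterol-binding protein family member on chromosome 18, was lower (15.5 against 23.6%; edgeR adjusted p = 0.00446).

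Brwd1-203, a short form of a bromodomain protein of chromatin, was lower in hippocampus (23.8 against 32.6%; edgeR adjusted p = 0.00178). Gcnt2-203, 1 of the alternative first-exon forms of a glycan-branching enzyme, was higher (25.4 against 15.8%; edgeR adjusted p = 0.000309). Cabp1-207, a retained-intron form of a neuronal calcium sensor, was higher (24.6 against 17.5%; edgeR adjusted p = 0.0383), as were Pantr1-202 (17.6 against 11%) and Snhg14-211 (22.9 against 15.3%), 2 long non-coding RNAs. The call of Cabp1-207 was lost in 13 of 28 alternatives (adjusted p up to 0.477), that of Snhg14-211 in 12 of 28, among them logit usage and DESeq2 (up to 0.549), and that of Pantr1-202 in 3 of 28 (up to 0.0998). Brwd1-203 and Osbpl1a-204 were not called without the 3 hippocampal libraries, nor Gcnt2-203 in the fit of all 6 groups.

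The called genes were compared by the structure of the transcript that gained most and the one that lost most in hippocampus, which could be read from the GENCODE M21 annotation for 153 of them. These pairs were taken by the size of the difference alone, and need not hold a transcript that was itself called. For Map2, the pair was Map2-204 and Map2-203, while the called transcript was Map2-202. The first exon differed in 108 (70.6%), against 46% of the 7703 tested genes with such a pair, and the last exon in 76 (49.7%) against 41.4%. Neither differed in 19 (12.4%) against 30.2%. In 16 called genes the pair shared no exon, as in Syne1. Among the 15 genes with a difference of 10 points or more, the first exon differed in 13 and the last in 10. These are counts from the annotation with no test, and called genes were not matched to the others by transcript number or count. A first or last exon counted as differing when the annotated end exons of the pair did not overlap. Partial transcript models were included, so a differing first exon is not a measure of promoter use.

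**Figure D4:**
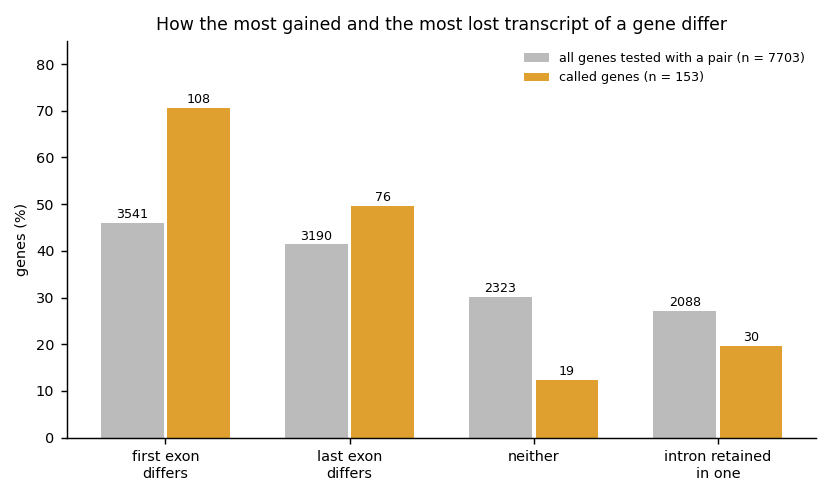
Share of genes (y axis, %) in which the most gained and the most lost transcript differ in the first exon, in the last exon or in neither, or in which 1 of them retains an intron, for all 7703 tested genes with a pair (grey) and the 153 called genes (orange); the number of genes stands above each bar. A differing first exon was found in 108 of the called genes, whose pairs need not hold a called transcript.

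By annotated class, 156 of 20979 tested protein-coding transcripts were called (0.744%), 53 of 6886 with a retained intron (0.77%), 34 of 3173 processed transcripts (1.07%) and 20 of 2396 targets of nonsense-mediated decay (0.835%), near the 0.79% over all tested. Of 71 antisense transcripts, 3 were called (4.23%), Gm27177-202, Gm27177-203 and Snhg14-211, named after their values were seen. Averaged over member genes, retained-intron transcripts held 9.56% ± 0.0697 (SD, n = 8) of usage in hippocampus and 9.38% ± 0.197 (SD, n = 8) in PFC (exact permutation p = 0.0166, adjusted over 4 classes 0.0665). Protein-coding transcripts held 78.9 and 79.1% (exact permutation p = 0.0451, adjusted 0.0901). Neither passed after adjustment. Usage-weighted transcript, coding and untranslated lengths differed by less than 0.01 on the log2 scale, with adjusted exact permutation p of 0.353 or more.

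The same tissue comparison was made in libraries that share none with these 16. In saline libraries, 7 hippocampal and 8 PFC, 88 transcripts were called (0.258%), and in PICK1i libraries, 8 and 8, 25 were called (0.0732%). Of the 270 transcripts called in PSD-95i libraries, 242 differed in the same direction in saline, where 58.0% of all tested transcripts had the same sign, and 267 in PICK1i, where 62.2% had. All 19 with 10 points or more kept their direction in both. Of the 270, 67 were also called in saline (24.8% of the PSD-95i calls and 76.1% of the saline calls) and 21 in PICK1i (7.78 and 84.0%), and 20 were called in all 3 treatments.

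Among the 20 were Syne1-201, at 47.1 against 26.7% in saline and 41.7 against 26.2% in PICK1i, and Rtn4-201, at 23.2 against 38.05% and 23.3 against 38.99%. Zfp652-203 was at 13.11 against 25.3% and 13.9 against 24.5%, Osbp2-205 at 12.4 against 4.27% and 10.6 against 3.77%, and Ly6e-212 at 4.28 against 11.02% and 4.59 against 10.4%. Ntrk2-202 was at 45.8 against 33.8% in saline (edgeR adjusted p = 0.00363) and 48.4 against 37.1% in PICK1i (edgeR adjusted p = 1). Clta-204, from clathrin light chain A, was lower by 2.33 points in PSD-95i libraries (edgeR adjusted p = 0.0205), and its differences in saline and PICK1i were -0.207 and -0.491 points. Its call was lost in 8 of the alternatives, among them without the 3 PFC libraries.

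Whether the tissue difference in usage itself differed between PSD-95i and saline was tested as an interaction in edgeR. No transcript of 34156 passed (smallest adjusted p = 0.473), and 864 had an unadjusted p under 0.05, fewer than the 1710 that chance gives. Such a deficit means that the test was conservative here. The lack of calls therefore does not show that the tissue differences were the same in both treatments. For the called transcripts, the differences in the other treatments were mostly smaller than in PSD-95i libraries in which they were selected.

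**Figure D5:**
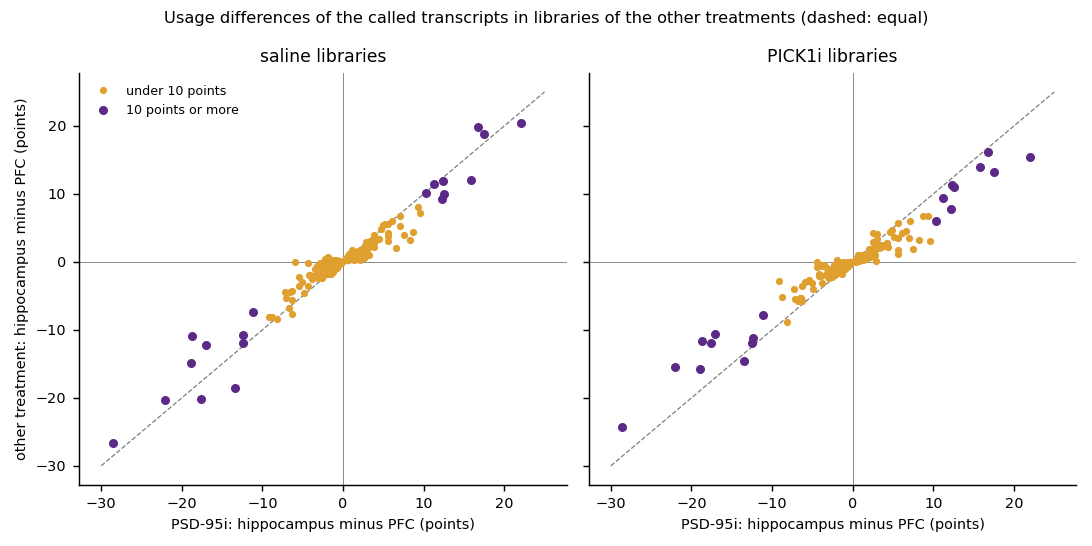
Usage difference (hippocampus minus PFC, percentage points) of the 270 called transcripts in PSD-95i libraries on the x axis and in saline (left) or PICK1i libraries (right) on the y axis; the dashed line marks equal values and purple points are the 19 transcripts with 10 points or more. All 19 lie in the quadrants of equal sign in both panels.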

How the data were processed

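Polyadenylated RNA was sequenced as 52-bp read pairs from stranded libraries, per the labels' protocols. The submitters' processing notes name bcl2fastq 2.20.0, STAR, Salmon and the build GRCm38. The annotation release and counting settings were not given in the sources used here. Estimated counts, as the authors deposited them, cover 109617 transcripts in 47 libraries and are not scaled between libraries. All 47 sample columns were used. Names, classes and exons came from GENCODE M21, which held 98.7% of the member transcripts, and sequences from its transcripts; 6239 M21 transcripts of member genes outside the table were not analysed here.

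Counts were rounded and fitted with edgeR 4.0.16 (TMM, glmQLFit robust, diffSpliceDGE) in R 4.3.3, and p-values were adjusted by Benjamini-Hochberg over all transcripts or genes tested. The prior of 15 degrees of freedom came from the fit. In simulated data of 7954 genes, 74% of 100 shifts of 10 points and 100% of 100 shifts of 20 points were recovered, with 15 false calls. Recovery and false calls were scored on genes by the Simes test, not on single transcripts. Counts were drawn independently for each transcript and library, without the components of usage found in the real libraries. The number of false calls therefore does not carry over to the real data. The shifts were placed only in genes with a mean count of 100 or more. They moved usage from the most abundant transcript to the next most abundant, so recovery for other transcripts or lower counts is not known. Alternatives used limma 3.58.1 (voom with diffSplice; logit usage with 0.5 added), DESeq2 1.42.0, other filters and scaling, and fewer libraries. Named genes were the 20 with the largest called difference at a mean count of 200 or more without predicted models, up to 3 called members per list, Dlg4, Pick1, and the 3 largest per kind of exon difference; not every one is printed. The genes and lists were chosen with earlier results of these data known. Pairs of PSD-95i libraries within a tissue were checked for duplicated counts, and none was found. The smallest mean chi-square per transcript was 1.66 in hippocampus and 1.57 in PFC. Other pairs were not compared.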

Additional observations from a re-analysis of the deposited data

Results flagged for a closer look

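Of 160 groups of 8 libraries examined for the named called transcripts, 5 held a library far from the others (its gap to the nearest library, as a share of the group's range, was above Dixon's 95% critical value). Chance flags about 1 in 20 groups. In PFC, Brwd1-203 was lowest in replicate 6, at 28.2%, and replicate 7 had the lowest Ntrk2-201, 58.6%, and with it the highest Ntrk2-202, 41.4%. In hippocampus, Il16-204 was lowest in replicate 5, at 3.21%, and Lrrtm4-201 was lowest in replicate 4, at 30.9%.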

How the results depend on the processing

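No direction reversed among the 134 named transcripts; 80 were called and 34 of them were called under every setting in which they were tested. The number of transcripts called, 270, ran from 161 to 460 with 1 library left out (439, 460 and 445 without PFC replicates 1, 4 and 6; 161 without PFC replicate 5; 171, 174 and 178 without PFC replicates 3, 7 and 8; 171 and 179 without hippocampal replicates 1 and 3), large changes from 15 to 20, Simes genes from 90 to 263 and F genes from 169 to 612. It was 136 with protein-coding transcripts only, 114 without PFC replicates 2, 3 and 8, 99 without hippocampal replicates 3, 6 and 7, 548 with 2 components of the spread within tissues as terms, and 139 at an adjusted p under 0.01; these 3 fits without or with added terms were chosen after seeing the data. In the same order Simes genes numbered 73, 66, 54, 314 and 81, and 96 with logit usage; F genes numbered 173, 107, 105 and 753 in the first 4, and 235 with a transcript minimum of 20. Large changes, 19, numbered 11 with genes of 200 counts or more, 33 by voom, 37 by logit usage, 39 by DESeq2 and 3 at 20 points.

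The retained-intron share, higher by 0.176 points, passed with genes of 200 counts or more (0.173), with genes weighted by count (0.301), and without PFC replicate 6 (0.197) or 7 (0.213). The protein-coding share passed without PFC replicate 7 (-0.236). With 1 library left out the first ranged from 0.119 to 0.213 and the second from -0.236 to -0.0965. The 5′ untranslated length passed when weighted by count (-0.0273 on the log2 scale). Usage divided by transcript length moved 42 of the named values by more than 1 SD. Whether replicate numbers pair the libraries was not settled by their correlations. In logit usage, same-numbered libraries of the tissues correlated at -0.14 to 0.348, and 2 of 8 correlated best with their own number. In log2 CPM they correlated at -0.123 to 0.448, and replicates 1 and 2 correlated best with their own number. With the replicate block, 243 transcripts were called, 217 of them among the 270. Counts limit what can be seen: the self-test recovered 74% of shifts of 10 points between the most abundant transcripts of a gene. Smaller shifts, and shifts between less used transcripts, were not simulated.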
